A study of Mus musculus with 24 samples.

Results

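miR-196 and miR-455 are 2 microRNA families that, in mouse fat cells, favour the brown-like (beige) state, and 4 of their mature miRNAs were followed across exercise training and genotype in subcutaneous fat. They were chosen by accession number: miR-196a-5p (MIMAT0000518), miR-196b-5p (MIMAT0001081), miR-455-5p (MIMAT0003485) and miR-455-3p (MIMAT0003742). They make up 4 of the 1907 mature miRNAs in the deposited table, and 5 of its 2045 loci, because miR-196a-5p is encoded at 2 loci whose reads were summed. Small RNA was sequenced from the subcutaneous adipose tissue of female mice kept on a chow diet. The libraries fell into 4 groups of 6: trained kinase dead, sedentary kinase dead, trained wild type and sedentary wild type. Training was treadmill running at 16 m/min in sessions of 1 hour, with 5 sessions per week over 6.5 weeks, and a running wheel was also provided. The kinase that lacks activity in the kinase dead mice, the tissue in which it is inactive, the age of the mice and whether the sedentary mice had a wheel are not stated in the labels. Nothing in the labels ties each library to its own animal, and the p-values therefore describe only the spread among the libraries, which may be technical.

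MicroRNAs guide Argonaute proteins to messenger RNAs that pair with the seed, bases 2 to 8 of the mature strand, and lower the output of those messengers. In mouse white fat progenitors miR-196a is known to repress Hoxc8, a homeobox repressor of the adipogenic regulator Cebpb, and forced expression of miR-196a in mouse fat makes the tissue more brown-like. miR-196b has the same seed and is best known from blood cell development and from the Hox genes that both miR-196 miRNAs target. miR-455 is known in the mouse to be induced by cold and by BMP7 and to favour brown fat differentiation by targeting the adipogenic repressors Runx1t1 and Necdin and the hypoxia regulator Hif1an. It also has a known role in cartilage.

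The mature sequences are shown because they decide which miRNAs share targets and which loci can be told apart by their reads. The sequences are from RefSeq (GRCm38.p6), written 5′ to 3′ with the seed in capitals, for the 4 miRNAs and for the opposite arms of the 3 miR-196 hairpins.
miR-196a-5p: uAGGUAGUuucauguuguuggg
miR-196b-5p: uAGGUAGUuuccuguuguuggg
miR-455-5p: uAUGUGCCuuuggacuacaucg
miR-455-3p: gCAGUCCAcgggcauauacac
miR-196a-1-3p: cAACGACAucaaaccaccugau
miR-196a-2-3p: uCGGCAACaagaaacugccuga
miR-196b-3p: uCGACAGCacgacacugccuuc
miR-196a-5p and miR-196b-5p were identical at 21 of 22 bases and shared the seed AGGUAGU, which no other name among the 1679 mature names in the RefSeq table carried. Their 1 difference is A12C, counted from the 5′ end of miR-196a-5p, outside the seed. The arms of miR-455 had unrelated seeds, AUGUGCC for the 5p arm, shared with miR-5129-3p alone, and CAGUCCA for the 3p arm, shared with no other name.

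All 3 miR-196 hairpins lie in Hox clusters, whose homeobox genes set position along the body axis. On GRCm38 (mm10), miR-196a-5p lies at chr11:96265187-96265208 on the plus strand in the Hoxb cluster, 6192 bases from Hoxb9, with no other gene annotated on its strand. Its second copy lies at chr15:102973365-102973386 on the plus strand in the Hoxc cluster, within an annotated intron of Hoxc5, 1457 bases from Hoxc10 and 3005 bases from Hoxc9. miR-196b-5p lies at chr6:52230129-52230150 on the minus strand in the Hoxa cluster, within an exon of at least 1 annotated transcript of Hoxa9 and 1032 bases from Hoxa10. miR-455 is outside the Hox clusters, in an intron of the cartilage collagen gene Col27a1 on the plus strand of chromosome 4, with the 5p arm at chr4:63256867-63256888 and the 3p arm at chr4:63256904-63256924. No other locus of the table overlapped any of the 4 miRNAs on either strand.

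Library totals ranged from 1.60 to 23.6 M reads, and the members were covered by between 213 reads (miR-455-3p) and 25081 reads (miR-196a-5p) in a library. The lymphocyte miRNA miR-150-5p reached 3631 to 6740 CPM (reads per 1000000 reads), in 7 of the 24 libraries, against 541 to 1015 CPM in the other 17. These lymphocyte-rich libraries were trained kinase dead replicates 3 and 6, sedentary kinase dead replicates 5 and 6, trained wild type replicates 1 and 2, and sedentary wild type replicate 1, and values without them are given below for each comparison of the members. Epithelial miRNAs, which white fat near skin or mammary gland can hold, summed to between 14710 and 25060 CPM in trained kinase dead, 13748 to 22630 CPM in sedentary kinase dead, 16294 to 27607 CPM in trained wild type and 14560 to 24449 CPM in sedentary wild type libraries. No miRNA that defines fat cells alone was listed, so the labelled tissue was not checked against one. In bulk tissue, fewer cells that make a miRNA and less of it in each cell cannot be told apart.

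miR-196a-5p was the most abundant of the 4 and miR-455-3p the least, in 24 of 24 libraries. Averaged over the 24 libraries, miR-196a-5p had 803 ± 185 CPM and ranked 88th of 1907 features, miR-455-5p had 377 ± 81.1 CPM and ranked 124th, miR-196b-5p had 345 ± 96.4 CPM and ranked 130th, and miR-455-3p had 119 ± 20.3 CPM and ranked 192nd (SD, n = 24). CPM here is scaled by TMM factors, which adjust library totals for composition. miR-196b-5p exceeded miR-455-5p in 10 of the 24 libraries, so the order of this pair was not fixed, and dividing by mature length gave the same counts. Adapter ligation differs between sequences, so such an order is one of reads.

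**Figure D1:**
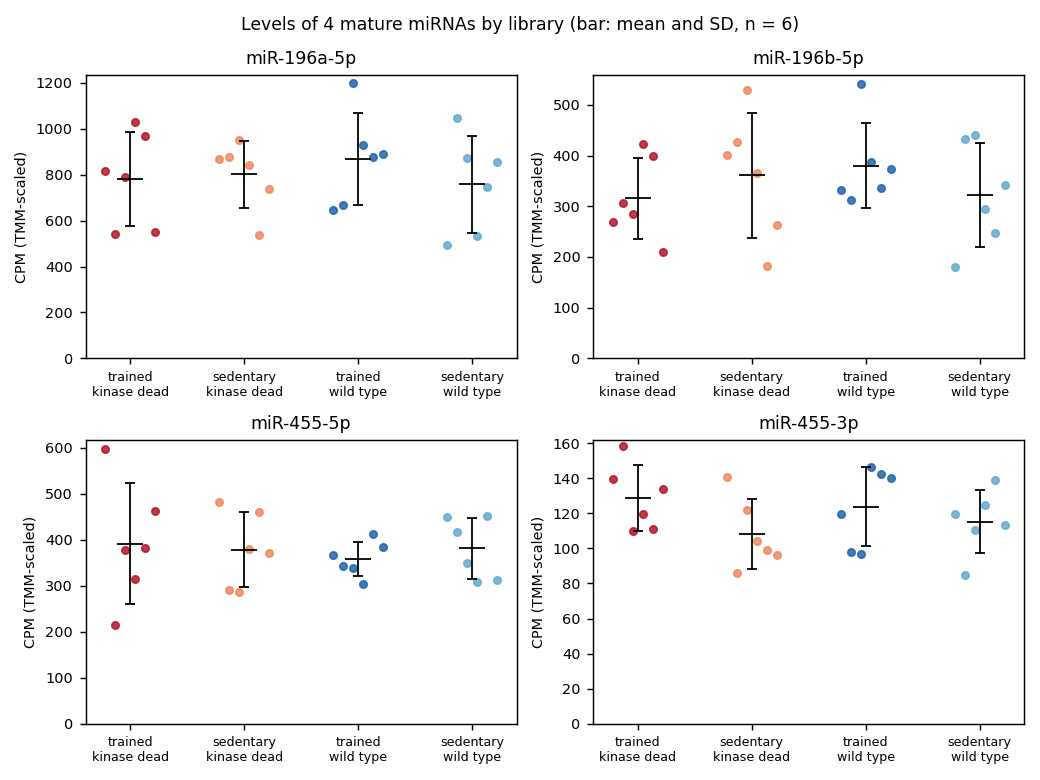
Each point is 1 library, in TMM-scaled CPM on axes that start at 0, and the black bars give the mean and SD of the 6 libraries of a group. The 4 groups overlap in every panel, with miR-196a-5p between 495 and 1201 CPM and miR-455-3p between 84.6 and 158 CPM.

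miR-196a-5p, the miRNA with the best known browning role, had overlapping levels in all 4 groups. In trained kinase dead libraries its lowest, median and highest levels were 543, 804 and 1029 CPM. In sedentary kinase dead libraries they were 539, 855 and 951 CPM. In trained wild type they were 648, 882 and 1201 CPM, and in sedentary wild type 495, 800.04 and 1046 CPM. The ranges overlapped in each of the 4 pairs of groups compared, and 4 of the 6 trained wild type libraries lay above the sedentary wild type median. The group means fell in the order trained wild type (868 ± 202 CPM), sedentary kinase dead (802 ± 147), trained kinase dead (783 ± 205) and sedentary wild type (758 ± 212; SD, n = 6 each). Each neighbour in that order differed from the next by less than 1 SD of either group.

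miR-196b-5p, its seed relative from the Hoxa cluster, had a similar layout at a lower level. Its lowest, median and highest levels were 210.5, 296 and 422 CPM in trained kinase dead libraries. The sedentary kinase dead libraries gave 183, 383 and 529 CPM. Trained wild type libraries gave 312, 354 and 542 CPM, and sedentary wild type libraries 179.8, 318 and 440.1 CPM. The highest single value, 542 CPM in trained wild type replicate 3, came from the library that was also highest for miR-196a-5p at 1201 CPM. Group means were 380.1 ± 84.0 CPM in trained wild type, 361 ± 123 in sedentary kinase dead, 322 ± 103 in sedentary wild type and 316 ± 80.6 in trained kinase dead (SD, n = 6 each), with neighbours again closer than 1 SD.

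miR-455-5p, the more abundant arm of its hairpin, varied most in trained kinase dead libraries. There its lowest, median and highest levels were 213, 379.5 and 597.5 CPM. The other ranges were narrower, with 287, 375 and 481 CPM in sedentary kinase dead, 304, 355 and 412 CPM in trained wild type, and 308, 383 and 451 CPM in sedentary wild type. The 2 ends of the trained kinase dead range were also the lowest and the highest of all 24 libraries. They were replicate 2, a library of 2.29 M reads, and replicate 1, of 9.15 M reads. Means were 391 ± 131 CPM in trained kinase dead, 381 ± 66.2 in sedentary wild type, 378 ± 81.6 in sedentary kinase dead and 358 ± 37.9 in trained wild type (SD, n = 6 each), each closer to the next than 1 SD.

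miR-455-3p, the less abundant arm, was the member with the smallest spread. Its lowest, median and highest levels were 109.7, 127 and 158 CPM in trained kinase dead and 86.0, 102 and 141 CPM in sedentary kinase dead libraries. In trained wild type they were 96.8, 129.9 and 147 CPM, and in sedentary wild type 84.6, 116 and 139 CPM. All 6 trained kinase dead libraries lay above the sedentary kinase dead median, although the 2 ranges overlapped and the edgeR adjusted p was 0.994. In wild type 4 of the 6 trained libraries lay above the sedentary median. The share of all features with such counts was not computed. Means were 129 ± 18.9 CPM in trained kinase dead, 124 ± 22.7 in trained wild type, 115 ± 18.04 in sedentary wild type and 108 ± 19.96 in sedentary kinase dead (SD, n = 6 each), with neighbours within 1 SD of each other. Of the 50 features nearest to it in level, 8 had a smaller SD within groups, whereas for miR-196b-5p 39 of 50 did.

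The design asks whether training alters these miRNAs in wild type mice, whether it does so in kinase dead mice, and whether genotype matters at either training status. None of the 4 passed in any of the 6 comparisons by the quasi-likelihood test of edgeR, adjusted by Benjamini-Hochberg over the 582 features tested, with smallest adjusted p-values among the members between 0.932 and 0.996. That test called 0 of 582 features, or 0%, in each comparison, and DESeq2 also called 0 in each. At an unadjusted p under 0.05, 0 of the 4 members were counted in any comparison. Over all features that count was 31 by edgeR and 38 by DESeq2 for training in wild type, 5.33% of features by edgeR. It was 14 and 15 for training in kinase dead (2.41%), and 36 and 38 for training averaged over genotypes (6.19%). It was 13 and 10 for the interaction (2.23%), 7 and 6 for kinase dead over wild type in sedentary mice (1.2%), and 4 and 9 for that contrast in trained mice (0.687%).

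The effect sizes bound what a difference could be. In wild type mice the trained over sedentary log2 fold change was 0.19 for miR-196a-5p (95% interval -0.23 to 0.62), 0.24 for miR-196b-5p (-0.26 to 0.74), -0.09 for miR-455-5p (-0.48 to 0.30) and 0.11 for miR-455-3p (-0.21 to 0.42). The intervals of the 4 miRNAs together reached from 0.715-fold to 1.67-fold, so a 2-fold difference in either direction lay outside each of them. In kinase dead mice the corresponding values were -0.03 for miR-196a-5p (-0.46 to 0.39), -0.19 for miR-196b-5p (-0.69 to 0.30), 0.05 for miR-455-5p (-0.34 to 0.44) and 0.25 for miR-455-3p (-0.06 to 0.56). The last had an SE of 0.15 and the smallest unadjusted p of a member within a genotype, 0.109, with an adjusted p of 0.994 by edgeR.

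Averaged over genotypes, the log2 fold change with training was 0.08 for miR-196a-5p (SE 0.15), 0.02 for miR-196b-5p (SE 0.17) and -0.02 for miR-455-5p (SE 0.13). miR-455-3p stood at 0.18 (95% interval -0.04 to 0.40), or 1.13-fold, with an unadjusted p of 0.107 and an adjusted p of 0.940 by edgeR. The fits that left out each library in turn gave 0.09 to 0.19 for it.

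Both miR-196 miRNAs had a positive training value in wild type and a negative one in kinase dead mice, but the difference between genotypes did not pass. The interaction, kinase dead minus wild type, was -0.23 for miR-196a-5p (SE 0.29) and -0.43 for miR-196b-5p (SE 0.34), with edgeR adjusted p-values of 0.993 for both. For the miR-455 arms it was 0.14 (SE 0.27) and 0.15 (SE 0.21). The 95% interval for miR-196b-5p ran from 0.455-fold to 1.21-fold, so a 2-fold difference between the training effects was not excluded for it.

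Genotype alone gave similarly small values. In sedentary mice the kinase dead over wild type log2 fold change was 0.08 for miR-196a-5p, 0.16 for miR-196b-5p, -0.01 for miR-455-5p and -0.09 for miR-455-3p. In trained mice it was -0.15 for miR-196a-5p, -0.27 for miR-196b-5p, 0.13 for miR-455-5p and 0.05 for miR-455-3p. The SEs lay between 0.15 and 0.24 in both. The comparisons share groups with each other, so these values are not independent of the training values. The median over all 582 features lay between -0.02 and 0.02 in each of the 6 comparisons.

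**Figure D2:**
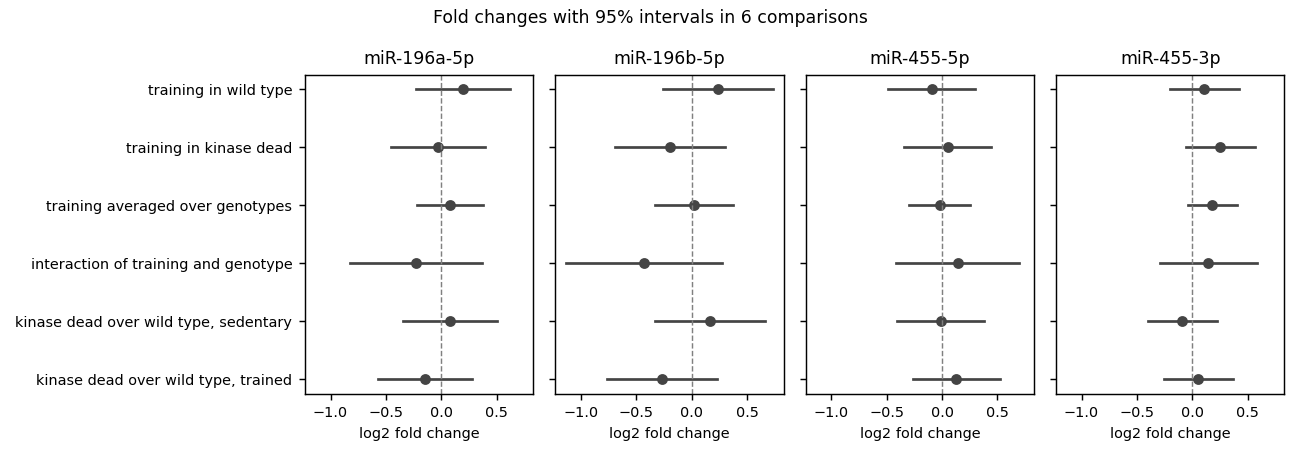
Points are edgeR log2 fold changes and lines their 95% intervals, with 1 panel for each miRNA and 1 row for each comparison. Each of the 24 intervals crosses 0, and miR-455-3p has the narrowest, such as -0.04 to 0.40 for training averaged over genotypes.

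The arms opposite the miR-196 guide strands were counted as well, because their reads can be told apart by hairpin. miR-196a-2-3p had 5291 reads over all libraries, miR-196b-3p 618 and miR-196a-1-3p 70, and the last was at 0 reads in 5 libraries and below the filter on low counts. The 5p arm of miR-196a has the same sequence at both loci, and the table assigned between 53.7% and 56.9% of its reads in a library to Mir196a-2. The 95% exact binomial interval lay above an even split in every library, with its lowest bound at 51.2% in trained kinase dead replicate 2. Reads of identical sequence cannot be placed, and the cause of this excess was not tested. The 3p arms differ in sequence, and of their reads 98.7% came from Mir196a-2 (95% exact binomial interval 98.4 to 99.0, counting error only). By library that share ran from 88.6% in sedentary wild type replicate 4, with 4 reads of miR-196a-1-3p and 31 of miR-196a-2-3p, to 100%. How often each hairpin keeps its 3p arm was not measured, so the share of 3p reads does not give the share of miR-196a-5p made at each locus.

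**Figure D3:**
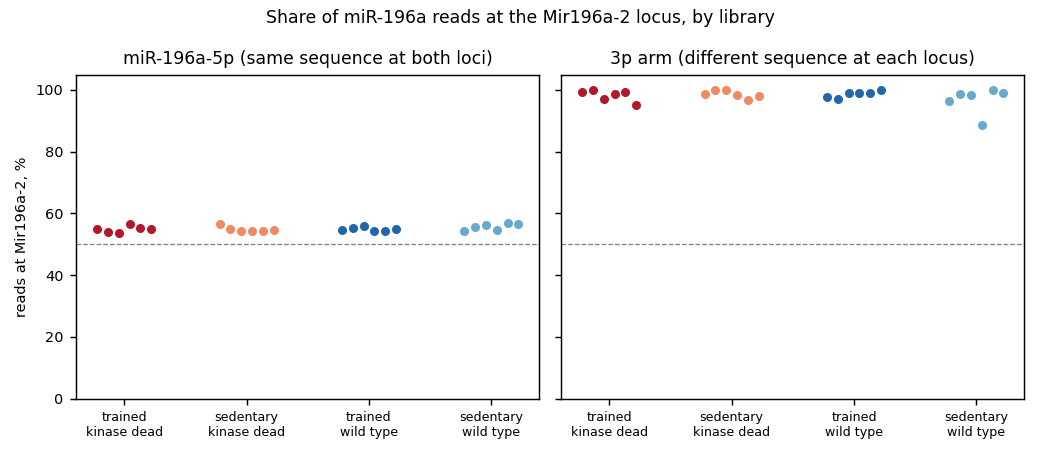
Points give, for each library, the percentage of reads assigned to the Mir196a-2 locus, on the left for miR-196a-5p and on the right for the 3p arms, and the dashed line marks an even split. The left panel sits between 53.7% and 56.9%, and the right panel between 88.6% and 100%.

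Of these opposite arms, miR-196b-3p was the only one of the 2 tested with an unadjusted p under 0.05 by edgeR. It had one in 1 of the 6 comparisons, training averaged over genotypes, where 36 of the 582 features (6.19%) did. It had 1.78, 3.57 and 8.41 CPM (lowest, median and highest) in trained kinase dead libraries and 1.47, 2.20 and 4.78 CPM in sedentary kinase dead libraries. It had 2.42, 3.31 and 3.98 CPM in trained wild type and 1.24, 2.41 and 3.73 CPM in sedentary wild type. These levels rested on 4 to 74 reads per library, and the groups overlapped. Training averaged over genotypes gave a log2 fold change of 0.50 (SE 0.23, unadjusted p = 0.0409, adjusted p = 0.743 by edgeR), while its guide strand miR-196b-5p stood at 0.02. Without trained kinase dead replicate 2, its highest library with 18 reads, the value was 0.39 (unadjusted p = 0.0677, adjusted p = 0.572 by edgeR), and without the lymphocyte-rich libraries it was 0.38 (unadjusted p = 0.13, adjusted p = 0.515). miR-196a-2-3p, at 23.5 ± 5.64 CPM (SD, n = 24), had a value of 0.05 (SE 0.15) in that comparison.

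The balance between members was also compared as ratios within a library, which do not depend on scaling. miR-455-5p outnumbered miR-455-3p by 1.35-fold to 4.93-fold, with a median of 3.40. The group medians were 3.44 in trained kinase dead, 3.52 in sedentary kinase dead, 2.98 in trained wild type and 3.20 in sedentary wild type. Trained kinase dead replicate 2, the library with the lowest miR-455-5p and the highest miR-455-3p, gave the 1.35. It was shallow, at 2.29 M reads. So were sedentary wild type replicate 4 (1.601 M) and sedentary kinase dead replicate 3 (2.61 M), which gave 2.46 and 2.35. These were the shallowest libraries, but trained wild type replicate 4, at 9.08 M, gave 2.07. Log2 total reads were set against log2 miR-455-3p over miR-455-5p, with group means removed. Their r was -0.35 and rho -0.15 (permutation p = 0.0926 and 0.485, n = 24). miR-196a-5p exceeded miR-196b-5p by 1.77-fold to 3.03-fold with a median of 2.41, and made up between 63.9% and 75.2% of the reads with their shared seed. The ratio was lowest in the shallowest libraries. It was 1.77 in trained kinase dead replicate 2, 1.797 in sedentary kinase dead replicate 3 and 1.81 in sedentary wild type replicate 4. Median depth was 9.67 M reads in trained kinase dead and 5.997 M in sedentary kinase dead. It was 10.77 M in trained wild type and 3.751 M in sedentary wild type. The part of depth in the group differences of the ratios was not tested.

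In 12 two-sided exact permutation tests over 924 splits, of 3 ratios in 4 pairs of groups (n = 6 each), the unadjusted p lay between 0.323 and 0.994, and between 0.831 and 0.994 after adjustment over the 12, where the smallest p the design allows is 0.00216. The difference in log2 miR-455-3p over miR-455-5p was 0.18 for trained over sedentary wild type and 0.25 for trained over sedentary kinase dead. For miR-196a-5p over miR-196b-5p these differences were -0.07 in wild type and 0.10 in kinase dead. The sum of both miR-196 miRNAs over the sum of both miR-455 arms differed by 0.27 in wild type and by -0.17 in kinase dead. Within groups the SD of that log2 ratio was 0.37 to 0.55, larger than either difference. Taken from reads summed over a group, which weights deep libraries more, the difference was 0.09 in wild type and 0.13 in kinase dead, so the direction in kinase dead turned. Without the lymphocyte-rich libraries that ratio differed by 0.24 in wild type mice and by -0.26 in kinase dead mice. The 12 exact permutation p-values of all ratios then lay between 0.314 and 1.

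**Figure D4:**
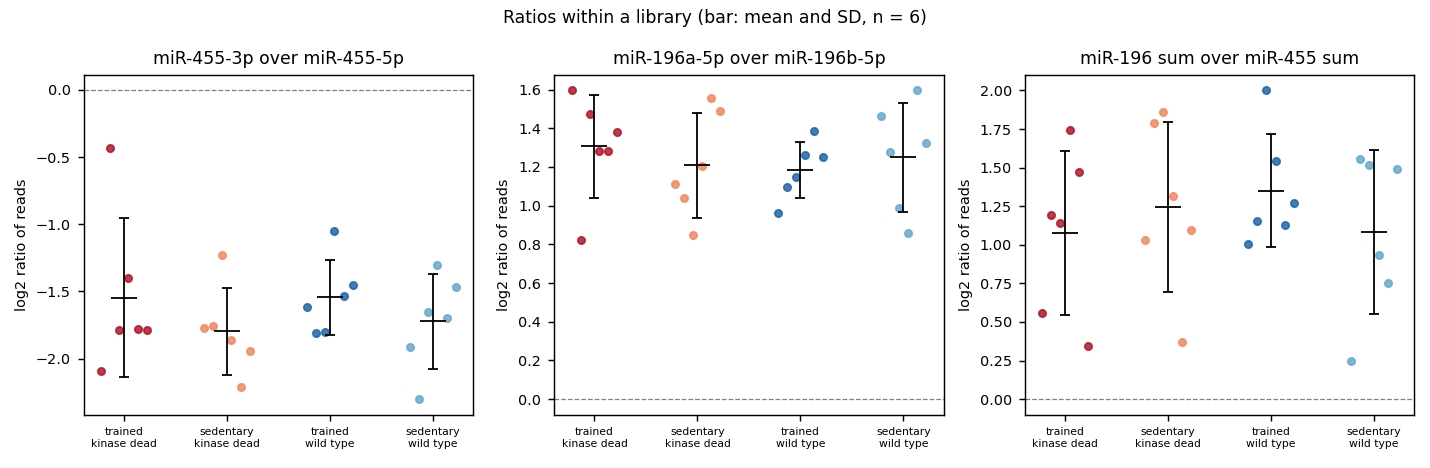
Points are log2 ratios of reads in 1 library, bars the mean and SD of 6 libraries, and the dashed line marks equal reads. The trained kinase dead library at the top of the left panel is replicate 2, at a log2 ratio of -0.43, and the groups overlap in all 3 panels.

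From library to library the 2 miR-196 miRNAs moved together. They come from different chromosomes but differ at only 1 base, and the labels do not say how mismatches were handled. Whether reads of either were counted as the other was not tested. After the mean of each group was taken off, log2 CPM of miR-196a-5p and miR-196b-5p had a Pearson r of 0.83 and a Spearman rho of 0.88 over 24 libraries (permutation p = 1e-05 for both, the smallest that 100000 permutations can give, and 6e-05 adjusted over the 6 pairs of members). Without the 2 libraries farthest from the median of miR-196a-5p r was 0.76. In the 17 libraries that were not lymphocyte-rich, a subset chosen after seeing the data, r was 0.69 and rho 0.78 (permutation p = 0.00162 and 0.00042; 0.00972 and 0.00252 adjusted), and 0.83 was the r without the 2 farthest libraries there. Values were not computed in the 7 lymphocyte-rich libraries, since sedentary wild type has only 1 of them. Removing group means uses up 3 degrees of freedom that the permutations do not count.

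The 2 arms of miR-455 did not show such a relation although they come from 1 hairpin. Their r was 0.05 and rho 0.15 (permutation p = 0.831 and 0.481, adjusted 0.831 and 0.481, n = 24), with r of 0.22 without the 2 farthest libraries and 0.06 in the 17 libraries. For comparison, a set defined after seeing the data was described: among the 29 hairpins with a single locus and both arms at 100 CPM or more on average, r between arms had a median of 0.63, a lower quartile of 0.42 and an upper quartile of 0.79. Only 2 of the 29 had a lower r than Mir455. The 29 were not all separate, since Mir486 and Mir3107 had the same r (0.994), and Mir126a and Mir126b nearly so (0.6304 each). The upper end also held Mir142 (0.96), a lymphocyte hairpin, and the part of cell content in these values was not tested. The SD within groups on the log2 scale was 0.33 for miR-455-5p and 0.25 for miR-455-3p, while counting error alone would give 0.03 and 0.06.

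**Figure D5:**
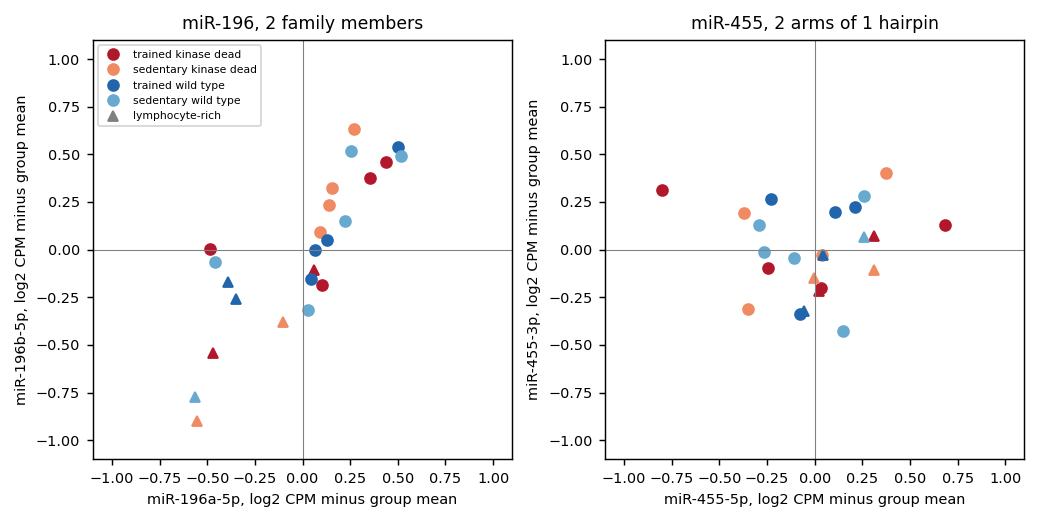
Each point is 1 library, placed by the log2 CPM of 2 miRNAs minus the mean of its group, with triangles for the 7 lymphocyte-rich libraries. The miR-196 pair lies along a rising line (r = 0.83), and the miR-455 arms form a cloud (r = 0.05).

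Between the families, no r passed 0.05 over the 24 libraries after adjustment, and 1 rho did. For miR-196b-5p with miR-455-5p r was -0.44 and rho -0.53 (permutation p = 0.0295 and 0.00801; 0.0884 and 0.0240 adjusted over 6), r was -0.36 without the 2 farthest libraries, and r was -0.31 in the 17 libraries (permutation p = 0.231). For miR-196a-5p with miR-455-3p r was -0.27 and rho -0.31 over 24 libraries (permutation p = 0.211 and 0.142; adjusted 0.421 and 0.283), and r without the 2 farthest was -0.32. In the 17 libraries that pair had r of -0.65 and rho of -0.74 (permutation p = 0.00409 and 0.00117; 0.0123 and 0.00351 adjusted). miR-196b-5p with miR-455-3p likewise had r of -0.18 over 24 libraries and -0.64 in the 17 (permutation p = 0.398 and 0.00619; adjusted 0.597 and 0.0124). The remaining pair, miR-196a-5p with miR-455-5p, had r of -0.05 and 0.30 (permutation p = 0.831 and 0.234).

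The levels of the members were also set beside the lymphocyte content of the libraries. miR-196a-5p ranged from 495 to 791 CPM with a median of 648 CPM in the 7 lymphocyte-rich libraries and from 533 to 1201 CPM with a median of 876 CPM in the other 17. The ranges for miR-196b-5p were 179.8 to 332 CPM and 246 to 542 CPM. miR-455-5p ranged from 342 to 463 CPM and from 213 to 597.5 CPM, and miR-455-3p from 96.3 to 134 CPM and from 84.6 to 158 CPM. The comparisons were then refitted on the other 17 libraries, an alternative chosen after seeing the data, and no member passed in any of the 6 by edgeR. Over all features, more had an unadjusted p under 0.05 than with all libraries. That count was 73 against 31 for training in wild type and 41 against 14 in kinase dead. It was 80 against 36 averaged over genotypes and 16 against 13 for the interaction.

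Without the lymphocyte-rich libraries, the log2 fold change for training in wild type was 0.31 for miR-196a-5p, 0.27 for miR-196b-5p, 0.01 for miR-455-5p and 0.24 for miR-455-3p. In kinase dead mice it was -0.10 for miR-196a-5p, -0.32 for miR-196b-5p, 0.03 for miR-455-5p and 0.18 for miR-455-3p. The value for miR-455-3p in wild type was thus larger than with all libraries (0.11), and both miR-196 values in kinase dead mice were further below 0. Averaged over genotypes, training gave 0.10 for miR-196a-5p, -0.03 for miR-196b-5p, 0.02 for miR-455-5p and 0.21 for miR-455-3p. The interaction was -0.41 for miR-196a-5p (unadjusted p = 0.169), -0.59 for miR-196b-5p (unadjusted p = 0.0612), 0.02 for miR-455-5p and -0.06 for miR-455-3p, with edgeR adjusted p-values of 0.930 for both miR-196 miRNAs. Kinase dead over wild type in sedentary mice was 0.14 for miR-196a-5p, 0.31 for miR-196b-5p, -0.01 for miR-455-5p and 0.0009 for miR-455-3p. In trained mice that contrast was -0.26 for miR-196a-5p, -0.28 for miR-196b-5p, 0.01 for miR-455-5p and -0.06 for miR-455-3p.

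The 3 features most like each member were found by Pearson r of log2 CPM over the 24 libraries with group means removed, among the 356 or 357 other features averaging at least 10 CPM. For miR-196a-5p they were miR-872-5p (r = 0.87), miR-196b-5p (0.83) and the epithelial miR-200c-3p (0.79). In the 17 libraries miR-872-5p was again first of all features (r = 0.91), while miR-196b-5p was 16th and miR-200c-3p 24th. For miR-196b-5p they were miR-708-5p (0.88), miR-195a-5p (0.84) and miR-143-5p (0.84), with miR-196a-5p in place 4, and in the 17 libraries these 3 were 6th, 14th and 19th. For miR-455-5p they were miR-450a-5p (0.81, also first in the 17 libraries), miR-3068-3p (0.75) and miR-3535 (0.67). For miR-455-3p they were miR-210-3p, a miRNA induced by low oxygen (0.66), miR-664-3p (0.65) and let-7d-5p (0.63). The other arm, miR-455-5p, ranked 166th of 357 features for miR-455-3p.

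Other miRNAs with a known part in browning were set beside the members from lists by published role. Of 12 other promoters of browning, 0 passed in any comparison by edgeR. In trained against sedentary wild type 5 of the 12 had a fold change above 0 and 7 below, with a median log2 fold change of -0.03, against 0.01 over all features. The smallest p there was that of miR-203-3p, an epithelial miRNA, at 0.46 (SE 0.17, unadjusted p = 0.0116, adjusted p = 0.779). At an unadjusted p under 0.05 by edgeR, 2 of the 12 were counted there, against 5.33% of all features. Training averaged over genotypes gave 3 of the 12, against 6.19%, with 6 of the 12 above and 6 below 0. Those 3 did not share a direction, with miR-203-3p at 0.33 and miR-129-5p at -0.44. The count was 1 for training in kinase dead (2.41%), 1 for the interaction (2.23%) and 0 for genotype at either training status. In kinase dead mice 7 were above 0 and 5 below, with a median of 0.05, and miR-129-5p had the smallest p, at -0.86 (SE 0.28, unadjusted p = 0.00606, adjusted p = 0.945 by edgeR). miR-129-5p also had the smallest p of the list in the interaction, at -0.83 (SE 0.40), and for genotype in sedentary mice, at 0.49 (SE 0.28). For genotype in trained mice it was miR-30b-5p, at 0.20 (SE 0.11).

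Of 12 miRNAs known to restrain browning, 0 passed as well. At an unadjusted p under 0.05 by edgeR, 1 of the 12 was counted for training in wild type, against 5.33% of all features. For genotype in trained mice 1 was counted, against 0.687%, and the count was 0 in the other comparisons. Training gave 6 above and 6 below 0 in wild type, with a median of 0.09, and 8 above and 4 below in kinase dead mice, with a median of 0.03. The smallest p in wild type was that of let-7i-5p, at -0.36 (SE 0.16, unadjusted p = 0.0363, adjusted p = 0.779 by edgeR). In trained mice, kinase dead over wild type, it was that of miR-133a-3p, which restrains Prdm16 and is also a defining miRNA of striated muscle, at -1.44 (SE 0.68, unadjusted p = 0.0471, adjusted p = 0.996). The summed striated muscle list, of which miR-208b-3p was below the filter, ranged from 725 to 2342 CPM in those trained kinase dead libraries and from 1138 to 6052 CPM in the trained wild type ones. The part of muscle in that value was not tested.

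miR-10a-5p and miR-10b-5p, the other miRNA family of the Hox clusters, were far more abundant, at 15522 and 22557 CPM on average, and did not pass in any comparison by edgeR. For training in wild type miR-10a-5p had a log2 fold change of -0.01 (SE 0.13), and in kinase dead 0.13 (SE 0.13). miR-10b-5p stood at 0.00374 (SE 0.14) and 0.0073 (SE 0.14) in those comparisons. The arms of miR-140, the cartilage miRNA, had positive values in wild type and negative ones in kinase dead mice, with medians of 0.12 and -0.16, and 0 of 2 passed in either by edgeR.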

How the data were processed

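Small RNA libraries of subcutaneous fat, 24 in all, were analysed in 4 groups of 6, named by genotype and training status. The deposited table holds raw counts, 1 row for each locus of a mature miRNA, and the authors had not normalized them. The submitters' processing notes name the build mm10 and the tools Bowtie2, featureCounts, Trim Galore and CASAVA 1.8.2. Nothing in the labels says how reads with several matches or with mismatches were handled. TRIzol extraction and the NEBNext small RNA kit are named per the labels' protocols. The deposited counts of loci with the same mature accession were summed (2045 loci, 1907 features), since reads of identical sequence cannot be placed; 1670 loci were named by RefSeq coordinates and 375 by GENCODE hairpin and arm.

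edgeR 4.0.16 (R 4.3.3) was fitted once to the 4 groups with TMM factors and filterByExpr, which kept 582 features; the 1325 others held 0.015% of the reads. P-values were adjusted over the 582 features with a threshold of 0.05, and no p was adjusted over a list. Intervals are 95%. Ratios used a pseudocount of 0.5 reads and exact permutation tests (scipy 1.17.1). Correlations used log2 CPM with a prior count of 2. The fit was tested on simulated counts for training in wild type alone. It called 89.1% of features changed by a log2 fold of 1, 96.7% at 2 and 2.49% of unchanged ones. Changes as small as those of the members were not simulated. Totals ranged from 1.60 to 23.6 M reads, so 3 reads stand for 0.127 to 1.87 CPM before TMM scaling. Within a group, any pair of libraries differed by a chi-square of at least 86.6 per degree of freedom, far above sampling noise.

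The members and lists were chosen with earlier results of these data known. The genes named are the members, the opposite arms of their hairpins, the 3 features most like each member, the Hox cluster miRNAs, and in each other list the member with the smallest p. Alternatives were DESeq2 1.42.0, other scaling factors, no filter, loci kept apart, another pseudocount, ratios of summed reads, and each library left out. Leaving out the lymphocyte-rich libraries (over 2000 CPM of miR-150-5p) and a lymphocyte covariate were added after seeing the data.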

Additional observations from a re-analysis of the deposited data

Results flagged for a closer look

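miR-196b-5p in trained wild type replicate 3 stood at 542 CPM, far from the other 5 libraries of its group, which lay between 312 and 387 CPM. The gap to the nearest of them was 0.671 of the group's range, above Dixon's critical value for 6 values. The same library had the highest miR-196a-5p, at 1201 CPM. Without it the trained over sedentary wild type log2 fold change of miR-196b-5p was 0.09, against 0.24 with it, and that of miR-196a-5p was 0.06, against 0.19 with it. Leaving out each library in turn gave 0.06 to 0.31 for miR-196a-5p and 0.09 to 0.35 for miR-196b-5p in that comparison.

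miR-196b-3p in trained kinase dead replicate 2 stood at 8.41 CPM, which rests on 18 reads, with a gap of 0.694 of the group's range. That library was also the highest for miR-455-3p and the lowest for miR-455-5p. In all, 36 groups of 6 were examined in this way and 2 stood out, where chance gives about 1 in 20.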

How the results depend on the processing

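No paired analysis was possible because the replicate numbers follow accession order and the labels pair no libraries. The count of features called stayed at 0 in each comparison under DESeq2, RLE, upper quartile and unscaled totals, without the filter, with loci kept apart, with each library left out and under both settings added after seeing the data. The refits gave 640 fold changes of the members and 2 opposite arms, which share libraries and are not independent. Of these, 0 had an adjusted p under 0.05 and 16 an unadjusted p under 0.05, nearly all of them for miR-196b-3p and 1 for miR-455-3p. Fold changes near 0 changed sign, and the cause was not tested. miR-196a-5p for training in kinase dead was 0.0054 with upper quartile factors and 0.0112 with totals only. miR-455-5p for training averaged over genotypes was 0.0127 with upper quartile factors. Its kinase dead over wild type value in sedentary mice was 0.016 with DESeq2, 0.0157 with RLE, 0.0194 with upper quartile factors, 0.0352 with totals only, 0.0812 with no filter and 0.0116 with loci kept apart. Without the lymphocyte-rich libraries miR-196b-5p was -0.0279 for training averaged, miR-455-5p 0.0093 for training in wild type and 0.0189 averaged, and miR-455-3p -0.064 for the interaction, 0.0009 for genotype in sedentary and -0.0632 in trained mice. Of the ratios, miR-455-3p over miR-455-5p was then 0.0281 for genotype in sedentary and 0.0344 in trained mice, and miR-196a-5p over miR-196b-5p 0.0531 for training in wild type and -0.0149 for genotype in trained mice. With reads summed over a group, the miR-196 over miR-455 sums turned to 0.1268 for training in kinase dead and -0.1329 for genotype in sedentary mice.

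With each library left out in turn, training averaged over genotypes ranged from -0.0219 to 0.1458 for miR-196a-5p, -0.0883 to 0.0539 for miR-196b-5p, -0.124 to 0.0552 for miR-455-5p and -0.0835 to 0.088 for miR-196a-2-3p. Training in kinase dead ranged from -0.1918 to 0.087 for miR-196a-5p and -0.1069 to 0.1966 for miR-455-5p, and the interaction of miR-455-5p from -0.0049 to 0.2827. Genotype in sedentary mice ranged from -0.0549 to 0.1391 for miR-455-5p and -0.1564 to 0.0511 for miR-455-3p. Of the log2 ratios, miR-455-3p over miR-455-5p ranged from -0.1901 to 0.0103 for genotype in sedentary and -0.2245 to 0.1084 in trained mice. miR-196a-5p over miR-196b-5p ranged from -0.145 to 0.0032 for training in wild type and -0.1213 to 0.0301 for genotype in sedentary mice, and the miR-196 over miR-455 sums from -0.0063 to 0.3356 for the last. Depth limits miR-196b-3p (4 to 74 reads) and miR-196a-1-3p (0 to 9 reads), and its part in the group differences of the ratios was not tested.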
